A study of Homo sapiens with 9 samples.

Results

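The mitochondrial ribosomal protein genes are the nuclear genes whose symbol is MRPL or MRPS followed by a number and, in a few cases, a letter from A to C. Of the 32906 genes listed in these RNA-sequencing data, 78 carried such a symbol, and no measured value was used to choose them. Of these genes, 51 encode proteins of the large subunit and 26 proteins of the small subunit, while MRPS36 was set apart because its product is now known as a component of the 2-oxoglutarate dehydrogenase complex. The symbol is an imperfect guide to the subunit, since MRPS30 and MRPS18A encode large subunit proteins. The genes lie on 21 chromosomes, with no more than 8 on any of them.

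Mitochondria hold their own ribosomes, which translate the few mRNAs of mitochondrial DNA into core subunits of the respiratory chain and of ATP synthase. The rRNAs of these ribosomes are transcribed from mitochondrial DNA, but all of their proteins are encoded in the nucleus, made in the cytosol and imported. Some of the proteins descend from ribosomal proteins of bacteria and others were gained in the course of mitochondrial evolution. Liver cells are rich in mitochondria, and the subunits have to be made in matching amounts for the ribosome to assemble.

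All libraries are labelled Huh7, the name of a long-used cell line derived from a human liver cancer (hepatocellular carcinoma). The cells had received a Scramble control siRNA (genotype label control), Si-KDM4C#1 or Si-KDM4C#2, the siRNAs against the histone demethylase KDM4C, and total RNA was taken after 48 hours. Each group had 3 libraries, and the comparisons ask how silencing of KDM4C changed the transcriptome. The labels do not say whether these came from separate cultures, so the p-values measure the spread between these libraries, which may be technical. Values are FPKM, that is fragments scaled to exon length and to the size of the library. FPKM is a level per length, so that genes can be compared with each other.

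The recovered depth ran from 14597503 to 18058557 fragments per library, and a floor of 3 fragments equalled 0.166 to 0.206 FPKM where the exons span 1 kb. KDM4C was at 4.88, 4.63 and 4.57 FPKM with Scramble, 1.18, 1.10 and 1.13 FPKM under Si-KDM4C#1 and 0.256, 0.349 and 0.256 FPKM under Si-KDM4C#2. Both decreases passed the test (log2 fold changes of FPKM + 1 of -1.41 ± 0.076 and -2.15 ± 0.076, SE). Adding 1 understates the fall of a gene this low. Under alternative processing the values ran from -1.975 to -1.295 and from -4.1 to -2.08. KDM4C differed between the siRNAs by -0.73, with -2.13 to -0.71 under alternative processing. Its paralog KDM4B also fell under Si-KDM4C#2, from a mean of 6.28 to 1.17 FPKM (log2 fold change of -1.74, adjusted p = 1.43e-07 in limma), and was at 5.77 FPKM under Si-KDM4C#1 (adjusted p = 0.240). Of 14 hepatocyte markers, 10 were listed and all of these stayed under 1 FPKM in every library, with sums of 0.0483 to 0.450 FPKM per library, at or near 0, which goes against the labelled cell type. The 6 fibroblast markers summed to 49.4 to 52.9 FPKM with Scramble, 56.0 to 59.1 under Si-KDM4C#1 and 79.6 to 80.7 under Si-KDM4C#2, carried by COL3A1 (means of 27.5, 38.5 and 55.5 FPKM). LUM (6.97 to 3.58 FPKM) and PDGFRB (1.95 to 0.308 FPKM) were called lower under Si-KDM4C#1, where the median of the 4 tested markers was -0.38 on the log2 scale. The 4 listed squamous epithelium markers summed to 65.1 to 71.3, 41.9 to 47.2 and 43.4 to 45.4 FPKM, nearly all of it KRT17, and the 4 listed blood cell markers stayed under 1 FPKM. The part of these markers in the results was not tested, and a smaller share of cells of some kind cannot be told apart from less RNA per cell.

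In Scramble cells the 78 genes ranged from 0.536 to 87.1 FPKM, with a median of 18.2 FPKM beside 5.54 FPKM over all 14363 genes tested. The highest was MRPS18B, at 88.4, 87.6 and 85.3 FPKM, followed by MRPL37 at a mean of 64.5 ± 0.439 FPKM (SD, n = 3) and MRPL14 at 59.6 ± 2.46 FPKM. MRPL37 and MRPL14 did not overlap, but lay close together, with 64.0 FPKM as the lowest library of the first and 62.0 FPKM as the highest of the second. The lowest were MRPS33 at 1.87 ± 0.312 FPKM, MRPL38 at 0.881 ± 0.196 FPKM and MRPS24 at 0.536 ± 0.0772 FPKM. These 3 genes were separated from each other in every Scramble library. The medians of the groups were closer than the genes within them, at 19.3 FPKM for large subunit proteins shared with bacteria, 13.2 for large subunit proteins specific to mitochondria, 16.3 for small subunit proteins shared with bacteria and 18.7 for small subunit proteins specific to mitochondria.

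**Figure D1:**
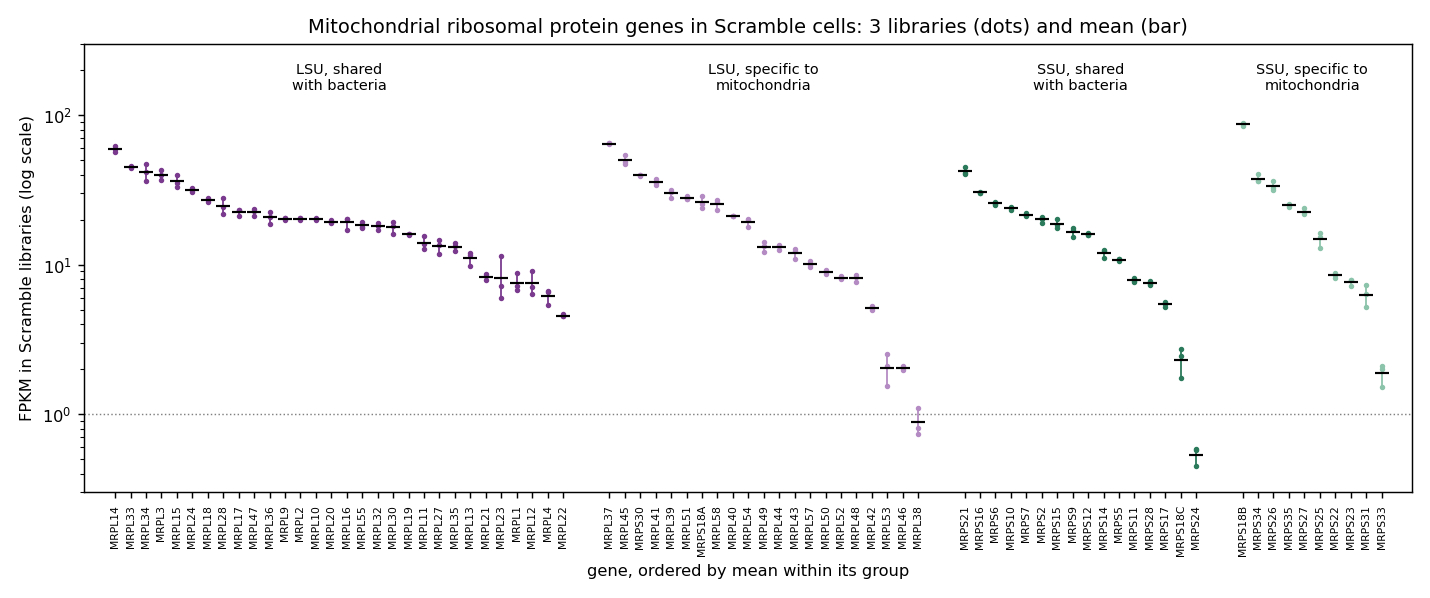
FPKM of 77 mitochondrial ribosomal protein genes in the Scramble libraries on a log axis, without MRPS36. Genes are ordered by their mean within 4 groups (LSU, large subunit; SSU, small subunit), dots are the 3 libraries, black bars their mean and the dotted line 1 FPKM. The median is 18.2 FPKM, and the values run from MRPS18B at 87.1 to MRPS24 at 0.536 FPKM.

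MRPS24 was at 0.583, 0.578 and 0.447 FPKM with Scramble and never reached 1 FPKM, so it did not pass the filter on low values and was not tested. Its fragments numbered 67 over the Scramble libraries, and the locus URGCP-MRPS24 covers 23.2% of its exons on the same strand. The other 77 genes were tested, but MRPL38, at 1.10, 0.807 and 0.733 FPKM with Scramble, passed only through its mean of 1.36 FPKM under Si-KDM4C#2. Of the 78 genes, 41 share exon sequence with another annotated gene, 29 of them with a gene on the opposite strand, and reads of such pairs cannot be told apart where the counting did not use strand. A further 29 listed pseudogenes carry the stem of 21 of the genes, and 5 of these exceeded 1 FPKM in some library.

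To show the sequences behind the members on which the results turn, RefSeq promoters (GRCh38.p14) were searched in the 250 bases before the start. A promoter was matched for 69 of the 78 genes, which leaves MRPL2, MRPL10, MRPL13, MRPL15, MRPL21, MRPL23, MRPL35, MRPS28 and MRPS36. The letters searched on both strands stand for factors known to act on nuclear genes for mitochondria or in the stress response. CCGGAAG, the core bound by ETS factors such as GABPA, was found in 33.3% of these promoters and in 8.78% of 27305 promoters over all genes. GCGCATGC, bound by NRF1, was in 8.70% against 2.83%, AAGATGGC, bound by YY1, in 7.25% against 1.39%, and CACGTG, the E-box that MYC binds, in 10.1% against 6.46%. TGATGNAA, an ATF4-type site, was in 1.45% against 3.19%. None of the 5 was found in 34 of the 69 promoters. The 27305 promoters include those of genes not tested here, while nearly all of the members were tested. The median GC content was 60.8% for the members' windows and 57.6% for all windows. The part of expression and of GC content in these shares was not tested. A match is a description and not a bound site.

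Below are stretches of the promoters of MRPS34 and MRPL4, which rose most under Si-KDM4C#1, of MRPL45, which fell with both siRNAs, and of MRPL17, which fell most under Si-KDM4C#2. Each is the longest part of the 250 bases that lies outside annotated exons (GENCODE 29), in the direction of the gene, with matches to the letters above in capitals. The MRPS34 stretch, chr16:1773156-1773206 on the minus strand, holds CCGGAAG on its other strand at bases -71 to -65 and -29 to -23 from the start. The MRPL17 stretch, chr11:6683402-6683590 on the minus strand, holds overlapping NRF1 matches from base -81 to -72. The MRPL4 stretch (chr19:10251701-10251900, plus strand) and the MRPL45 stretch (chr17:38296918-38297022, plus strand) hold none, while CACGTG lies at -133 to -128 in the unprinted part before MRPL45. The unprinted parts also hold an ETS match at -19 to -13 before MRPS34 and an NRF1 match at -43 to -36 before MRPL17.
MRPS34: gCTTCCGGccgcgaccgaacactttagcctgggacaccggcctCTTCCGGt
MRPL4: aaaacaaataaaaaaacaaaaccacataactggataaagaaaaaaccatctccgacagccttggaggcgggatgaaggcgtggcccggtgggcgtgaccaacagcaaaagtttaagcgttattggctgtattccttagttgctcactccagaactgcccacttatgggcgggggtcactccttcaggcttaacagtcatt
MRPL45: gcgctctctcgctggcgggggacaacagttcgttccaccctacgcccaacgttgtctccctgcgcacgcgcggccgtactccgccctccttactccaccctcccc
MRPL17: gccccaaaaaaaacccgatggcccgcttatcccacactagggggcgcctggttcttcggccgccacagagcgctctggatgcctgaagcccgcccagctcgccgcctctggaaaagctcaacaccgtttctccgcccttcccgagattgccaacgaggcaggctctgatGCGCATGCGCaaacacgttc

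With Si-KDM4C#1, 44 of the 77 tested genes were higher than with Scramble and 15 were lower at FDR < 0.05 (limma-trend on log2(FPKM + 1), adjusted over all genes tested). Over all genes tested, 31.7% were called higher and 33.9% lower, so the members were called higher more often (57.1%) and lower less often (19.5%) than the background, a difference given here without a test. The median log2 fold change of the members was 0.26, beside -0.03 over all genes, and the values ran from -1.49 to 1.93. A fold change of over 2 was reached by 9 higher and 5 lower members, where 4.04% and 4.83% of all genes were called that way. The fold change is on the scale of log2(FPKM + 1) and understates the change of low genes.

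With Si-KDM4C#2, 38 members were higher and 12 were lower than with Scramble, against 34.4% and 25.0% of all genes. The median log2 fold change of the members was 0.22, beside 0.06 over all genes, with a range from -1.72 to 1.61. Over 2-fold, 3 members were higher and 2 were lower, against 2.60% and 2.30% of all genes, so these shares lay near the background. The comparisons of the siRNAs use the same Scramble libraries and are not independent of each other. Side by side, 33 members were called higher with both siRNAs, 5 lower with both, 6 in opposite directions and 12 with neither. Another 8 were higher and 7 lower only with the first siRNA, and 2 were higher and 4 lower only with the second. The shares of all genes in these classes are not given here, so the agreement of the siRNAs is not read from the counts.

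In the direct comparison, 18 members were higher and 31 lower under Si-KDM4C#2 than under Si-KDM4C#1, against 35.9% and 26.5% of all genes, and 3 and 2 of them passed a fold change of 2, against 4.41% and 2.49%. With limma voom on the recovered fragments the split was 13 higher and 37 lower, and the shares of all genes in that fit are not given here. The median difference was -0.05 on the log2 scale for the members and 0.08 for all genes. It ranged from -0.163 to -0.040 over the alternatives, with -0.162 for limma voom (all genes 0.0076) and -0.088 without Si-KDM4C#1 replicate 1.

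**Figure D2:**
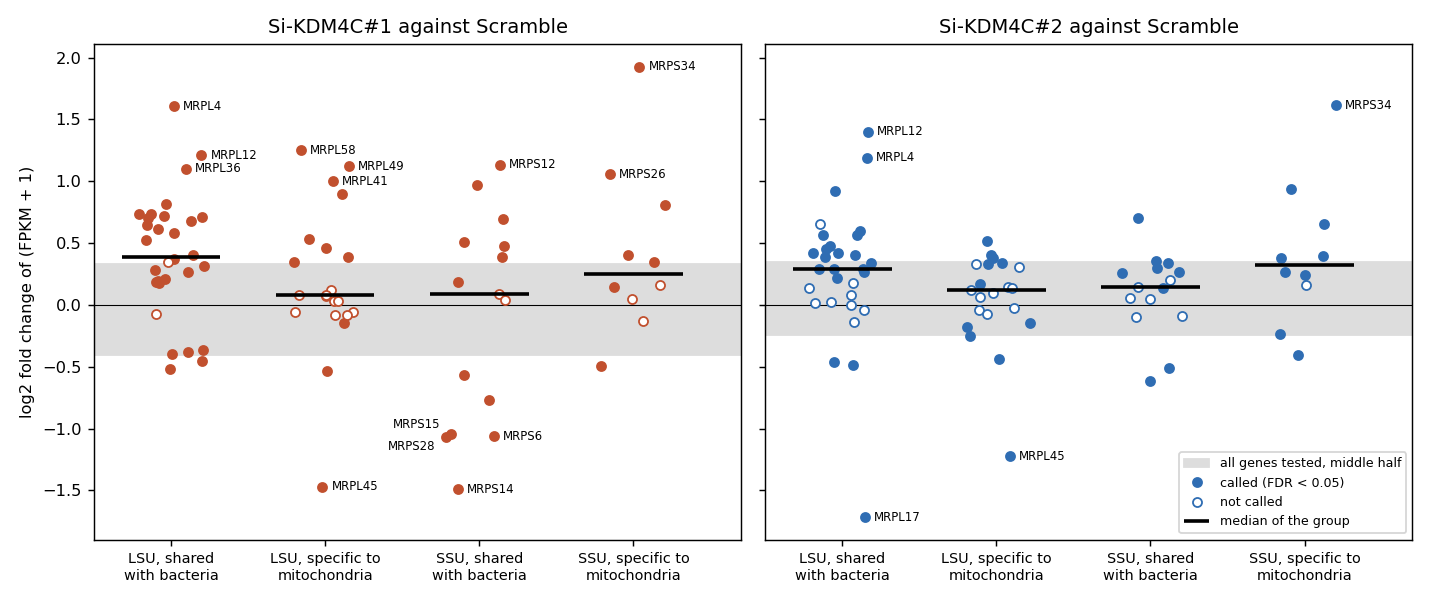
Log2 fold change of (FPKM + 1) of each tested member against Scramble, for Si-KDM4C#1 (left, red) and Si-KDM4C#2 (right, blue), in the 4 groups of genes, without MRPS36. Filled points passed FDR < 0.05, open points did not, black lines are the medians of the groups, the grey band holds the middle of all genes tested from the lower to the upper quartile, and genes beyond a log2 value of 1 are named. MRPS34 is the highest point in both panels, at 1.93 and 1.61, and MRPL17 the lowest under Si-KDM4C#2, at -1.72.

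Among the 30 large subunit genes shared with bacteria, 23 were higher and 5 lower under Si-KDM4C#1, and 18 were higher and 3 lower under Si-KDM4C#2. The shares called higher were 76.7% and 60.0%, beside 31.7% and 34.4% of all genes. Called lower were 16.7% and 10.0%, beside 33.9% and 25.0%. MRPL4, the counterpart of a bacterial protein that lines the tunnel for the nascent chain, was at 6.67, 5.35 and 6.60 FPKM with Scramble, 19.6, 21.5 and 21.6 FPKM under Si-KDM4C#1 and 16.5, 15.3 and 14.4 FPKM under Si-KDM4C#2. All knockdown libraries lay above all Scramble libraries, and the log2 fold changes were 1.61 ± 0.081 (adjusted p = 1.79e-07 in limma) and 1.19 ± 0.081 (adjusted p = 2.01e-06). Antisense RNAs overlap 13.8% and 7.59% of its exons. MRPL12, the stalk protein that recruits translation factors and is also known to bind the mitochondrial RNA polymerase, was at 9.08, 7.10 and 6.36 FPKM with Scramble, 15.5, 21.9 and 18.8 FPKM under Si-KDM4C#1 and 24.7, 22.6 and 17.3 FPKM under Si-KDM4C#2. The knockdown groups overlapped each other but not Scramble, at log2 fold changes of 1.21 ± 0.16 and 1.40 ± 0.16. Another annotated protein-coding locus, AC139530.2, covers 68.2% of the MRPL12 exons on the same strand, so their reads are hard to assign.

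MRPL36, one of the smallest proteins of the large subunit, rose from a mean of 20.7 ± 2.01 FPKM to 45.5 ± 1.26 under Si-KDM4C#1 and to 28.0 ± 1.36 under Si-KDM4C#2 (SD, n = 3). With an adjustment for GC content the second change was 0.11 on the log2 scale and no longer called (adjusted p = 0.273 in limma). MRPL14 rose from 59.6 to 106 and 78.3 FPKM, and MRPL24 from 31.7 to 46.2 and 61.0 FPKM. MRPL24 is among the 7 genes of this group that were higher in the direct comparison of the second siRNA with the first (log2 difference of 0.39 ± 0.057). MRPL35 fell with both siRNAs, from 13.2 ± 0.743 to 9.39 ± 0.714 and 9.18 ± 0.819 FPKM.

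MRPL17, whose bacterial counterpart sits near the exit of the tunnel, showed the largest difference between the siRNAs. It was at 23.3, 21.3 and 23.2 FPKM with Scramble, 28.8, 28.99 and 30.7 FPKM under Si-KDM4C#1 and 6.86, 6.21 and 5.51 FPKM under Si-KDM4C#2. None of the groups overlapped. The gene was higher with the first siRNA (log2 fold change of 0.37 ± 0.068, adjusted p = 9.53e-04 in limma) and lower with the second (-1.72 ± 0.068, adjusted p = 8.93e-08), and the siRNAs differed by -2.09 ± 0.068.

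Of the 21 large subunit genes specific to mitochondria, 8 were higher and 3 lower under Si-KDM4C#1, 6 were higher and 5 lower under Si-KDM4C#2, and 10 were not called with each. The shares called higher, 38.1% and 28.6%, lay near the 31.7% and 34.4% of all genes. Called lower were 14.3% and 23.8%, beside 33.9% and 25.0% of all genes, so the first of these lay below the background. MRPL58, a peptidyl-tRNA hydrolase built into the ribosome, was at 26.2, 23.4 and 27.1 FPKM with Scramble, 59.5, 63.1 and 63.5 FPKM under Si-KDM4C#1 and 28.5, 27.7 and 25.8 FPKM under Si-KDM4C#2. It rose with the first siRNA (1.25 ± 0.060 on the log2 scale, adjusted p = 1.25e-07 in limma), while the libraries of the second overlapped Scramble (0.10 ± 0.060, adjusted p = 0.195). The difference between the siRNAs was -1.15 ± 0.060 (adjusted p = 2.64e-07). MRPL49 rose to 29.9 ± 1.64 FPKM under Si-KDM4C#1 and 17.7 ± 0.268 under Si-KDM4C#2, from 13.2 ± 1.04 FPKM.

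MRPL41 rose from 35.7 ± 1.54 to 72.5 ± 5.73 FPKM under Si-KDM4C#1 and was at 37.3 ± 1.98 FPKM under Si-KDM4C#2. The latter value was not called (log2 fold change of 0.06), and after adjustment for GC content it was -0.38 and called lower. MRPL37, the second highest member in Scramble, was at 64.8, 64.0 and 64.8 FPKM there, 88.0, 88.6 and 90.3 FPKM under Si-KDM4C#1 and 45.4, 49.8 and 47.2 FPKM under Si-KDM4C#2. It was thus called higher with the first siRNA (0.46 ± 0.037) and lower with the second (-0.44 ± 0.037). MRPL38, low throughout, was at 1.27, 1.33 and 1.49 FPKM under Si-KDM4C#2, and since it entered the test only through this group, no call is read from that comparison.

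MRPL45, known to anchor the large subunit to the inner membrane, was the member of this group with the largest decrease. It was at 47.0, 48.6 and 54.1 FPKM with Scramble, 19.8, 18.0 and 14.6 FPKM under Si-KDM4C#1 and 17.3, 25.8 and 20.0 FPKM under Si-KDM4C#2. The knockdown groups overlapped each other, and all of their libraries lay below all Scramble libraries. The log2 fold changes were -1.47 ± 0.14 (adjusted p = 1.19e-05 in limma) and -1.23 ± 0.14 (adjusted p = 5.94e-05). The pseudogene MRPL45P2 was listed at means of 4.13, 2.85 and 4.03 FPKM, and reads may be split between the copies. MRPL45, MRPL35 and MRPS6 were lower with both siRNAs, as were MRPL33 and MRPS35, which are named here after their values had been seen.

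**Figure D3:**
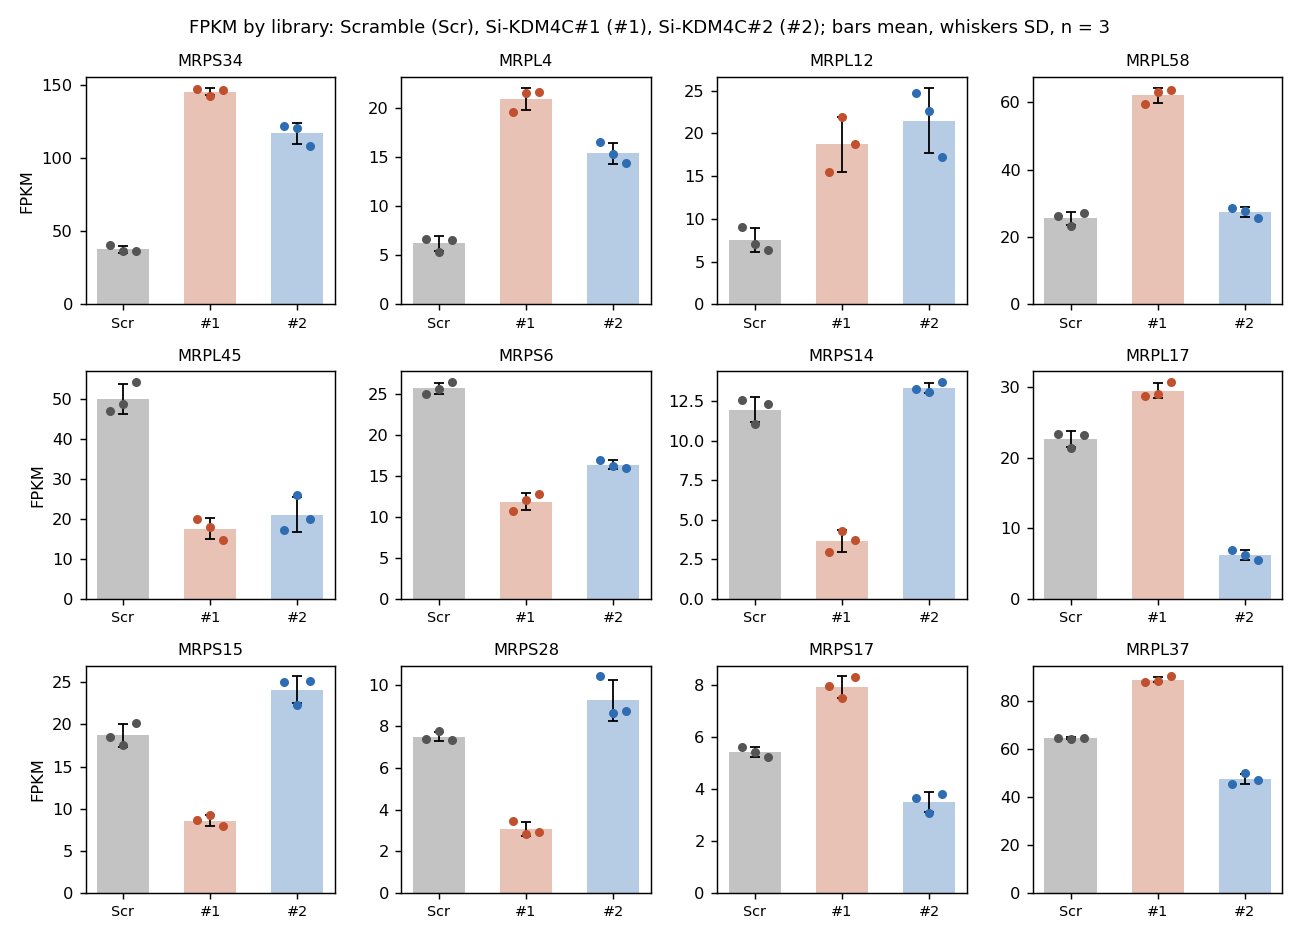
FPKM of 12 members in each library of Scramble (Scr, grey), Si-KDM4C#1 (#1, red) and Si-KDM4C#2 (#2, blue), with bars for the mean and whiskers for the SD (n = 3), on axes that start at 0. MRPS34, MRPL4 and MRPL12 are high and MRPL45 and MRPS6 low with both siRNAs, while MRPL17, MRPS17 and MRPL37 are high under Si-KDM4C#1 and low under Si-KDM4C#2.

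Of 15 tested small subunit genes shared with bacteria, 7 were higher and 6 lower under Si-KDM4C#1, and 7 were higher and 2 lower under Si-KDM4C#2. With each siRNA 46.7% were called higher, beside 31.7% and 34.4% of all genes. Called lower were 40.0% with the first and 13.3% with the second, beside 33.9% and 25.0%. MRPS12, part of the decoding centre, rose from 16.0 ± 0.380 FPKM to 36.3 ± 2.104 and 26.6 ± 0.352 FPKM (SD, n = 3). MRPS6 fell from 25.7 ± 0.713 to 11.8 ± 1.03 and 16.4 ± 0.523 FPKM, with log2 fold changes of -1.06 ± 0.059 and -0.62 ± 0.059. Both genes kept the order of the groups in every library. This group held most of the larger decreases under Si-KDM4C#1, as 4 of the 5 members lower by more than 2-fold belong to it.

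MRPS14 was at 12.6, 11.1 and 12.3 FPKM with Scramble, 2.95, 4.28 and 3.72 FPKM under Si-KDM4C#1 and 13.3, 13.1 and 13.7 FPKM under Si-KDM4C#2. It fell with the first siRNA more than any other member (-1.49 ± 0.095, adjusted p = 7.17e-07 in limma), and with the second its libraries lay just above those of Scramble without passing the test (0.15 ± 0.095, adjusted p = 0.208), though it was called higher after adjustment for GC content (0.31). The siRNAs differed by 1.64 ± 0.095, the largest positive difference among the members. Of the MRPS14 exons, 13.5% overlap CACYBP on the opposite strand.

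MRPS15, a small subunit protein that binds rRNA early in assembly in bacteria, was at 18.5, 17.5 and 20.1 FPKM with Scramble, 8.60, 9.26 and 7.90 FPKM under Si-KDM4C#1 and 24.98, 22.3 and 25.1 FPKM under Si-KDM4C#2. The groups did not overlap, and the gene was lower with the first siRNA (-1.04 ± 0.071) and higher with the second (0.35 ± 0.071, adjusted p = 0.00203 in limma). MRPS28 followed the same order, at 7.40, 7.79 and 7.35 FPKM, then 3.47, 2.83 and 2.91 FPKM, then 10.4, 8.63 and 8.74 FPKM. Its decrease under Si-KDM4C#1 was -1.07 ± 0.081. Its increase under Si-KDM4C#2 (0.26 ± 0.081, adjusted p = 0.0184 in limma) was lost without Scramble replicate 3 (0.25, adjusted p = 0.0525), without Si-KDM4C#2 replicate 1 (0.19, adjusted p = 0.0656) and with limma voom (0.23, adjusted p = 0.0676). Another annotated gene, AC036214.3, covers 35.8% of the MRPS28 exons on the same strand.

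MRPS5, which lines the entry of the mRNA in the small subunit, was at 10.9, 10.6 and 10.97 FPKM with Scramble, 6.10, 6.04 and 5.70 FPKM under Si-KDM4C#1 and 12.5, 11.8 and 11.6 FPKM under Si-KDM4C#2. It fell with the first siRNA (-0.77 ± 0.044, adjusted p = 3.89e-07 in limma). The increase with the second was small (0.13 ± 0.044, adjusted p = 0.0258) and was lost without Scramble replicate 2 (0.12), without Si-KDM4C#2 replicate 1 (0.11), without Si-KDM4C#2 replicate 2 (0.14), with quantile normalization (0.05) and with limma voom (0.08). MRPS17 went the opposite way, from 5.61, 5.42 and 5.22 FPKM to 7.98, 7.49 and 8.30 FPKM under Si-KDM4C#1 and 3.65, 3.07 and 3.801 FPKM under Si-KDM4C#2. It was higher with the first siRNA (0.48 ± 0.070) and lower with the second (-0.51 ± 0.070), and another annotated protein-coding locus, AC092647.5, covers 21.8% of its exons.

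Of the 10 small subunit genes specific to mitochondria, 6 were higher and 1 lower under Si-KDM4C#1, and 7 were higher and 2 lower under Si-KDM4C#2. The shares called higher were 60.0% and 70.0%, against the same background, and 10.0% and 20.0% were lower, beside 33.9% and 25.0%. Each gene counts for 10.0%. MRPS34, without which the small subunit is known to be unstable, showed the largest increase of all members with each siRNA. It was at 40.3, 36.2 and 36.3 FPKM with Scramble, 148, 143 and 147 FPKM under Si-KDM4C#1 and 122, 121 and 109 FPKM under Si-KDM4C#2. The groups were far apart relative to their spread, with log2 fold changes of 1.93 ± 0.055 (adjusted p = 1.06e-08 in limma) and 1.61 ± 0.055 (adjusted p = 4.84e-08). Its exons overlap no other annotated gene, and the means rest on 1982, 7799 and 6170 fragments summed over the libraries of each group. MRPS26 rose from 33.7 ± 2.44 to 71.0 ± 3.51 and 65.2 ± 2.31 FPKM. MRPS33, at 1.87 FPKM the lowest of the group, rose to 2.80 ± 0.186 and 2.72 ± 0.0844 FPKM.

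The human genome holds 3 homologs of the bacterial protein S18, and their products sit at different places in the ribosome. MRPS18B, in the small subunit, rose slightly, from 87.1 ± 1.59 to 96.2 ± 1.65 FPKM under Si-KDM4C#1 and 105 ± 1.33 FPKM under Si-KDM4C#2 (SD, n = 3). The first of these changes (0.14 on the log2 scale) was -0.04 with quantile normalization. MRPS18A, in the large subunit, was at 26.1 ± 2.52, 24.5 ± 0.0478 and 24.7 ± 0.671 FPKM and was not called. It was called lower with quantile normalization (-0.24 and -0.21), with adjustment for GC content (-0.26 and -0.21) and, under Si-KDM4C#1, without Scramble replicate 1 (-0.14). MRPS18C, which takes the place of the bacterial protein, was at 2.30 ± 0.496, 2.38 ± 0.288 and 2.77 ± 0.234 FPKM and was not called, but was called higher after adjustment for GC content (0.28 and 0.37). RSPH9 covers 47.0% of the MRPS18A exons and ABRAXAS1 40.2% of the MRPS18C exons, both on the opposite strand.

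MRPS36 was not called with either siRNA, at 13.3 ± 0.872 FPKM with Scramble, 12.9 ± 0.980 under Si-KDM4C#1 and 14.3 ± 0.861 under Si-KDM4C#2. With adjustment for GC content both differences were positive and called (0.26 and 0.33 on the log2 scale).

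Summed over the members, the level was 1583, 1567 and 1588 FPKM with Scramble, 2103, 2113 and 2154 FPKM under Si-KDM4C#1 and 1903, 1891 and 1846 FPKM under Si-KDM4C#2. The groups did not overlap, and the means were 1.34 and 1.19 times that of Scramble. Without MRPS34 these ratios were 1.283 and 1.144. The large subunit genes summed to 1.32 and 1.12 times Scramble and the small subunit genes to 1.41 and 1.33 times. Without MRPS34, a choice made after its values were seen, the small subunit sum was 1.208 and 1.19 times Scramble. Under Si-KDM4C#1 it then rose less than the large subunit sum, from which no gene was left out. The median log2 fold changes under Si-KDM4C#1 were likewise 0.32 for the large and 0.16 for the small subunit, and under Si-KDM4C#2 they were 0.22 and 0.24. The ratio of the large subunit sum to the small subunit sum was 2.05 to 2.11 in the Scramble libraries, 1.92 to 2.01 under Si-KDM4C#1 and 1.73 to 1.77 under Si-KDM4C#2. Without MRPS34 it was 2.23 to 2.27, 2.42 to 2.52 and 2.105 to 2.16. The lower ratio under Si-KDM4C#1 thus rested on this gene and turned without it, while that under Si-KDM4C#2 stayed below Scramble. As MRPS34 rose most, leaving out only this gene raises the ratio more with the siRNAs than with Scramble. The members made up 0.512% to 0.530% of all FPKM with Scramble, 0.711% to 0.715% under Si-KDM4C#1 and 0.621% to 0.645% under Si-KDM4C#2.

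FPKM values of a library are relative to its total, and the mRNAs of mitochondrial DNA took a large part of it. Their 13 genes held 21.97% to 24.9% of all FPKM with Scramble, 16.1% to 17.0% under Si-KDM4C#1 and 18.4% to 19.8% under Si-KDM4C#2. The part of this shift in the members' sums was not tested.

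**Figure D4:**
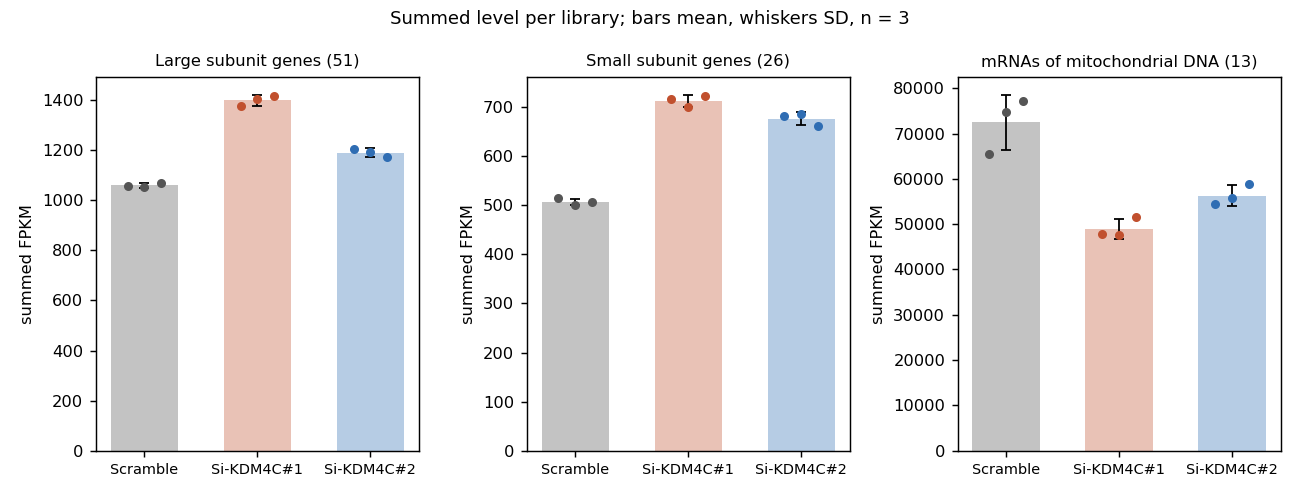
Summed FPKM per library of the large subunit genes, the small subunit genes and the mRNAs of mitochondrial DNA, for Scramble (grey), Si-KDM4C#1 (red) and Si-KDM4C#2 (blue). Dots are libraries, bars the mean and whiskers the SD (n = 3). Both subunit sums were lowest with Scramble, at means of 1059 and 507 FPKM, and the mitochondrial mRNA sum was highest there, at 72438 FPKM.

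Of the 13 mitochondrial mRNAs, 9 were lower and 1 higher under Si-KDM4C#1, and 6 were lower and 1 higher under Si-KDM4C#2. Called lower were thus 69.2% and 46.2%, beside 33.9% and 25.0% of all genes, and higher 7.69% with each, beside 31.7% and 34.4%. MT-CO1, a catalytic subunit of cytochrome oxidase, had means of 12996, 7140 and 8724 FPKM in Scramble and in the first and second siRNA group, and MT-ND4L, a subunit of complex I, had means of 10628, 5785 and 6774 FPKM. The rRNA MT-RNR2 was called lower under Si-KDM4C#2 (12263 to 7681 FPKM) and did not pass the test under Si-KDM4C#1 (12304 FPKM), and MT-RNR1 was called lower under Si-KDM4C#2 as well. These calls depend on the filter. The fold change of a gene cannot, since it comes from the values of that gene alone. The median over the 15 transcripts was thus -0.42 and -0.35 on the log2 scale with and without the filter, which is no sign of stability. With no filter on low genes, the count of lower mitochondrial transcripts out of 15 fell from 9 to 4 under Si-KDM4C#1 and from 8 to 0 under Si-KDM4C#2, since the same differences were tested among 32906 genes with another estimate of the spread. The share of all genes called without the filter is not given here.

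Other nuclear genes for mitochondrial translation, transcription and import were taken from lists, along with regulators such as MYC and ATF4. The lists were chosen with earlier results of these data known, so their shares are no independent support for the change of the members. Of the 71 such genes, 48 were higher and 9 lower under Si-KDM4C#1 (67.6% and 12.7%), and 39 were higher and 10 lower under Si-KDM4C#2 (54.9% and 14.1%), against the shares over all genes given above. Of 5 ribosomal proteins without an MRP symbol, 4 were higher with each siRNA (80%), beside 31.7% and 34.4% of all genes. AURKAIP1 rose by 0.70 on the log2 scale under the first siRNA and GADD45GIP1 by 0.55 under the second. PTCD3 was lower under Si-KDM4C#1 (-0.29) and was at -0.04 under Si-KDM4C#2, which did not pass the test.

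Of 25 genes for assembly of the ribosome and modification of its rRNA, 17 were higher and 2 lower under Si-KDM4C#1, and 9 were higher and 3 lower under Si-KDM4C#2. Called higher were 68% and 36%, beside 31.7% and 34.4% of all genes, and lower 8% and 12%, beside 33.9% and 25.0%. The higher share under Si-KDM4C#2 thus lay near that of all genes. The rRNA methyltransferase MRM1 rose by 1.29 and 1.11 on the log2 scale and RCC1L by 0.98 and 1.07. FASTKD2, which binds mitochondrial RNA, was lower with both (-0.66 and -0.48). Of 15 translation factors, 7 were higher and 5 lower under Si-KDM4C#1, and 8 were higher and 5 lower under Si-KDM4C#2. Higher were 46.7% and 53.3%, against the same background, and 33.3% were lower with each siRNA. The lower share under Si-KDM4C#1 thus lay near the 33.9% of all genes. The initiation factor MTIF2 was lower under Si-KDM4C#1 (-0.60) and higher under Si-KDM4C#2 (0.40). The release factor MTRF1L was lower with both (-0.28 and -0.83), while SLIRP, a partner of LRPPRC in keeping mitochondrial mRNAs stable, was higher with both (0.81 and 0.52).

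Of 14 genes for mitochondrial transcription, import and protein folding, 11 were higher with each siRNA and 2 were lower under Si-KDM4C#2. That is 78.6% higher with each, beside 31.7% and 34.4% of all genes, and 14.3% lower under Si-KDM4C#2, beside 25.0%. TOMM22, a receptor of the outer membrane import pore, rose from a mean of 7.10 to 36.9 and 21.5 FPKM (log2 fold changes of 2.23 and 1.47). The protease LONP1 rose by 1.66 and 1.07, while TFAM, which packs mitochondrial DNA, was lower under Si-KDM4C#2 (-0.59) and at 0.06 under Si-KDM4C#1. Of 12 regulators of nuclear genes for mitochondria, 9 were higher and 1 lower under Si-KDM4C#1, and 7 were higher under Si-KDM4C#2. The shares called higher were 75% and 58.3%, against the same background, and 8.33% were lower under Si-KDM4C#1, beside 33.9% of all genes. MYC rose by 1.52 and 0.55 on the log2 scale and ATF4 by 1.35 and 1.03, while PPARGC1A was lower under Si-KDM4C#1 (-0.39).

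The changes of the members moved with their GC content, taken from the longest annotated transcript of each gene. Across the 77 tested members, Pearson's r between GC content and log2 fold change was 0.54 under Si-KDM4C#1 (Spearman's rho of 0.56) and 0.45 under Si-KDM4C#2 (0.50). Over 14343 genes with a GC value, r was 0.32 and 0.31. Genes are not independent replicates and the points share the same libraries, so no p-value is given. MRPS34, MRPL4 and MRPL12 have 64.5%, 64.9% and 64.6% GC, and MRPS14 and MRPL45 39.9% and 46.6%, beside a median of 47.7% for the members and 48.2% for all genes tested. With an adjustment of each library for GC content, 51 members were higher and 15 lower under Si-KDM4C#1 and 45 higher and 11 lower under Si-KDM4C#2. Only 4 were higher and 3 lower by more than 2-fold under Si-KDM4C#1. The shares of all genes called in that fit are not given here, so the counts are not read as a larger excess of the members. The correlation with exon length was weaker (r of -0.18 and -0.15).

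**Figure D5:**
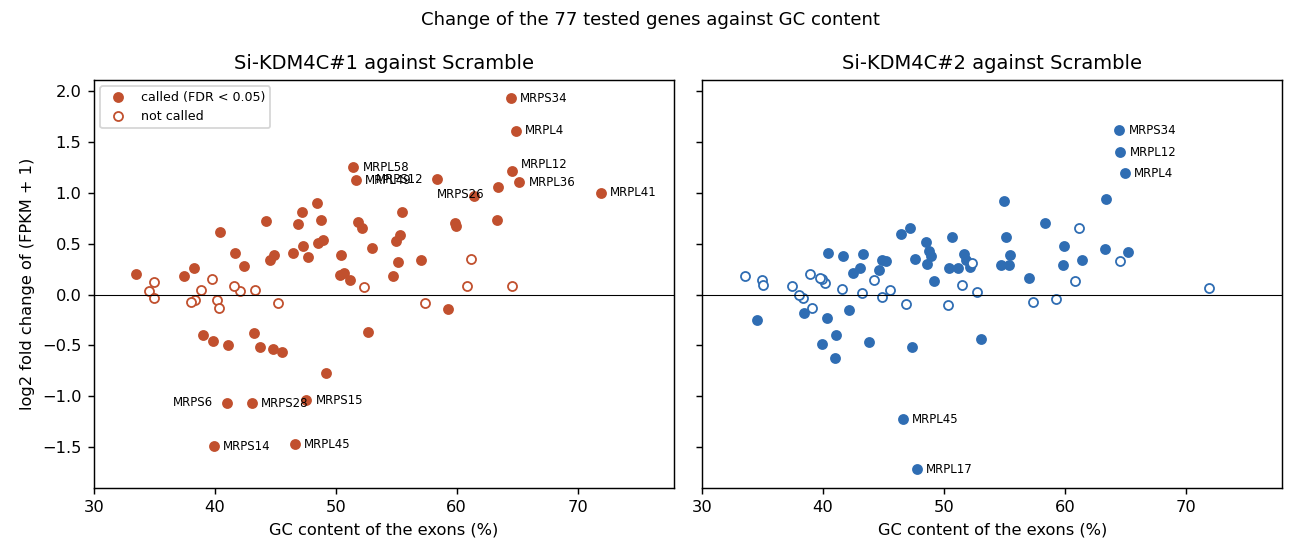
Log2 fold change of (FPKM + 1) against the GC content in percent, for the 77 tested members under Si-KDM4C#1 (left, red) and Si-KDM4C#2 (right, blue). The GC content is that of the exons of the longest annotated transcript of each gene. Filled points passed FDR < 0.05, open points did not, and genes beyond a log2 value of 1 are named. The points rise from left to right in both panels, with r of 0.54 and 0.45, and MRPL41 at 71.9% GC has the highest GC content.

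Some of the genes start close to a neighbour on the other strand. Of the 78 members, 17 (21.8%) start within 1 kb of a protein-coding gene that runs away from them, beside 10.3% of the 11120 protein-coding genes tested. Pairs that overlap at their starts are not in these counts. The partner was tested for 13 of them. With Si-KDM4C#1 both genes of 7 pairs were called, 5 in the same direction and 2 in opposite directions. Under Si-KDM4C#2 both of 3 pairs were called, 2 in the same direction. Of all genes tested, 31.7% were called higher and 33.9% lower with the first siRNA, and 34.4% and 25.0% with the second. The share of such pairs called alike over all genes is not given here, so no joint change is read from the counts. MRPL46 and MRPS11 are each other's partner and both are counted. MRPL36 starts 34 bases from NDUFS6, a complex I subunit, and both rose with each siRNA (1.10 and 1.02 on the log2 scale under Si-KDM4C#1, 0.42 and 0.70 under Si-KDM4C#2). MRPS34 starts 52 bases from EME2, which was lower under Si-KDM4C#1 (-0.70) and was at 0.31 under Si-KDM4C#2, which did not pass the test (adjusted p = 0.0757 in limma).

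Split by the promoter letters, 10 of 23 tested members with CCGGAAG were higher and 3 lower under Si-KDM4C#1, and 29 of 45 without it were higher and 10 lower. With Si-KDM4C#2 the counts were 9 higher and 2 lower with it, and 24 and 9 without it. Of the 7 members with CACGTG, 5 were higher and 1 lower under Si-KDM4C#1, and 4 were higher and 2 lower under Si-KDM4C#2. Of the 6 members with GCGCATGC, 5 were higher and 0 lower under Si-KDM4C#1, and 3 were higher and 1 lower under Si-KDM4C#2. Of the 5 with AAGATGGC, 4 and 3 were higher and 0 lower with each siRNA. The 1 member with TGATGNAA was higher with each. Over all genes tested, 31.7% were higher and 33.9% lower under Si-KDM4C#1, and 34.4% and 25.0% under Si-KDM4C#2. The counts by letters are small and were not tested against each other.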

How the data were processed

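Total RNA of Huh7 cells was sequenced with paired ends on an Illumina NovaSeq (NEB Next Ultra RNA kit, for which no strand-marking step is named). FPKM values had been computed by the authors, who deposited a separate list for every library. Per the submitters' processing notes the tools were FastQC 0.11.5, HISAT2 2.1.0, StringTie 1.3.3b, featureCounts and DESeq 1.28.0 on GRCh38, and their roles, the annotation and any scaling between libraries are not given in the sources used here. Multiplied by exon length in GENCODE release 29 and a total per library, the deposited FPKM gave whole fragments (within 0.05) in all libraries for 32080 of 32906 genes (97.5%), and for 77 of the 78 members, all but MRPL28. These fragments gave the depth and some alternatives. Intervals from them would cover counting error only.

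The 14363 genes whose mean reached 1 FPKM in any group entered limma 3.58.1 under R 4.3.3, as log2(FPKM + 1), with a trended prior, no covariates and all 9 libraries together, and Benjamini-Hochberg adjustment ran over every gene tested. A gene was called at FDR < 0.05, and calls with a fold change over 2, the limits of the study, were counted apart. Errors of log2 fold changes are standard errors of this fit. The groups of members, the gene lists and the tests were chosen with earlier results of these data known. Members were named by rule: the 5 called members with the largest changes each way per siRNA, the 5 with the largest difference between the siRNAs, all past 2-fold, those called in opposite directions (5 at most), the 3 highest and 3 lowest in Scramble, those that failed the filter, and MRPS18A, MRPS18B, MRPS18C, MRPL12, MRPL58 and MRPS36. In each list at most the 2 largest changes each way per siRNA were named, and the value of the same gene for the other siRNA was given beside it in most cases.

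The alternatives were a pseudocount of 0.1, no filter, at least 1 FPKM in every library (11171 genes), quantile normalization, a fit to only the 6 libraries compared, a block for the replicate number, a GC adjustment by lowess within libraries (span 0.3, 14343 genes), limma voom on recovered fragments (at least 10 in at least 3 libraries, 16010 genes), an FDR of 0.01 and leaving out each library in turn. Sums without MRPS34 were added after the data had been seen. No library repeated another of its group, as counts differed beyond sampling (2.56 to 5.75 chi-square units per degree of freedom). Promoters came from RefSeq, with the most upstream start of each gene. Simulated libraries with known changes were used to check the fit. Other steps ran in Python 3.11.15 (numpy 2.4.6, pandas 2.3.3) and figures were drawn in matplotlib 3.10.9.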

Additional observations from a re-analysis of the deposited data

Results flagged for a closer look

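The following members were called in opposite directions with the siRNAs, and the direct comparison of Si-KDM4C#2 under Si-KDM4C#1 passed FDR < 0.05 for each. The log2 difference was -2.09 for MRPL17, -0.99 for MRPS17 and -0.89 for MRPL37, which were higher under Si-KDM4C#1 and lower under Si-KDM4C#2 than with Scramble. It was 1.39 for MRPS15, 1.33 for MRPS28 and 0.90 for MRPS5, which were lower under Si-KDM4C#1 and higher under Si-KDM4C#2. All libraries of the siRNAs were on opposite sides of all Scramble libraries for these 6 genes. The genes were chosen by their opposite calls, so the direct differences and the separation of the libraries largely follow from that choice. They are no further support, and the share of all genes called in opposite directions is not given here. The increases of MRPS28 and MRPS5 under Si-KDM4C#2 were lost under some alternatives. A like search for libraries far from the rest of their group was not made, since groups of 3 are too small for it.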

How the results depend on the processing

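Counts of members called at FDR < 0.05 moved by at most 1.5 times under every alternative run, from 37 to 51 higher and 14 to 19 lower under Si-KDM4C#1 and from 34 to 45 higher and 10 to 18 lower under Si-KDM4C#2, and from 41 to 44, 15 to 16, 36 to 42 and 10 to 12 when a library was left out. The shares of all genes called under the alternatives are not given here, so these ranges describe the members alone. The median change of the members stayed positive, from 0.20 to 0.35 and from 0.13 to 0.265. Past 2-fold under Si-KDM4C#1, 4 members were higher with quantile normalization, with GC adjustment and with GC adjustment plus the replicate block, and 3 were lower with either GC adjustment. In the direct comparison 5 were lower past 2-fold with limma voom, without and with the block. The nuclear lists together gave 16 lower genes for Si-KDM4C#2 after quantile normalization, in place of 10.

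The 15 mitochondrial transcripts were less stable. With no filter, 0 were higher and 4 lower under Si-KDM4C#1, 0 were lower under Si-KDM4C#2, and in the direct comparison 3 were higher and 0 lower. With quantile normalization, 3 were higher and 5 lower under Si-KDM4C#1, 3 higher and 3 lower under Si-KDM4C#2, and 4 lower in the direct comparison. GC adjustment gave 2 higher with each siRNA, and 3 under Si-KDM4C#2 when the block was added. With only the 6 libraries compared, 0 were higher under Si-KDM4C#1, and leaving out a library gave 0 to 1. The filter cannot alter the fold changes, which come from each gene alone, so only the calls could move with it. For the other settings the cause was not tested.

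Of 1542 values of named members under the alternatives, 1495 kept their direction and their side of the threshold, 12 lost the call, 28 gained it and 7 changed sign. The sign changes were MRPS36 under Si-KDM4C#1 (0.26 with GC adjustment, without and with the block), MRPL41 under Si-KDM4C#2 (-0.38, likewise), MRPS18B under Si-KDM4C#1 (-0.0443 with quantile normalization) and MRPS18B in the direct comparison (-0.0058 and -0.0061 with limma voom, without and with the block). Of 798 counts for the gene lists, 51 moved by more than 1.5 times.

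The replicate numbers in the labels share no stated batch. Deviations of same-numbered libraries correlated at a mean of 0.016 over 9 pairs (-0.046 to 0.055) and those of other numbers at -0.0081, so the number was not taken as a pairing. With the replicate block 44 members were higher and 16 lower under Si-KDM4C#1, 38 and 12 under Si-KDM4C#2, and 17 and 30 in the direct comparison. Depth limits the low members: MRPS24 rests on 46 to 67 fragments per group of libraries.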
